A study of Oncorhynchus mykiss with 48 samples.

Results

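The liver of F2 control rainbow trout was followed from the juvenile at 112 days post-fertilization (dpf) to the yearling at 365 dpf. The fish were chosen by their labels alone, as all fish of generation F2 with the Control treatment, and they number 8 of the 48 fish sequenced, 4 at each age. Control F2 fish grew from eggs of F1 Control females that were fertilized with sperm of untreated males, and those F1 females had come from eggs held in ovarian fluid with vehicle (ethanol) only. The F2 fish of a treatment were raised in a single tank, at a research station with flowing water, and food was withheld before each sampling. The groups set beside them were the 8 F1 Control fish (140 and 365 dpf) and the F2 BPA4 and BPA40 lineages, which descend from eggs carrying 4 or 40 ng of bisphenol A and were sampled at 112 and 365 dpf with 4 fish per age. The F1 fish of the BPA4 and BPA40 treatments, sampled at 140 and 365 dpf, grew from eggs that were themselves loaded with bisphenol A. They are shown on the age axis and enter the scale set over all 48 fish, but no comparison with them was tested. The age of the younger F2 fish is that of the days label, since their titles, in Control and in both BPA lineages, say 140 dpf. Age, day of sampling and any difference in the handling of the libraries cannot be told apart. The p-values below measure the spread between fish, and F2 fish of a treatment shared a tank, so in F2 treatment and tank cannot be told apart. The F1 fish, per the paper, came from an experiment with replicate tanks for each treatment.

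The liver of a teleost makes most of the proteins of the blood plasma, forms bile, stores glycogen and lipid and clears foreign compounds. In trout it also makes yolk precursor proteins when females mature. A whole liver piece holds hepatocytes together with blood cells, vessels, bile ducts and resident immune cells, so that in these bulk samples fewer cells of a type and less RNA per cell cannot be told apart. Salmonids carry many pairs of gene copies from an ancient duplication of their genome, and near-identical copies can share fragments. The tables name genes only by identifiers of the genome annotation, of which 0 of 46585 matched the reference table at hand. The labelled tissue could therefore not be checked against liver markers, no pathway or cell type list could be read, and only 4 identifiers are given below.

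Most of the measured liver transcriptome differed between the juvenile and the yearling. Of 20445 genes with enough fragments to be tested, 7725 rose with age (37.8% of genes tested) and 6158 fell (30.1%). Among the genes that rose, the median log2 fold change was 2.24, and among those that fell it was -1.62. When only genes that reached 10 fragments in all 8 fish were tested, these medians were 1.56 and -1.31. Genes that rose tended to be scarce and genes that fell abundant: the median level over the 8 fish was 1.83 log2 CPM (fragment counts set against the TMM-scaled total of the library) in the first list and 4.21 in the second. The test was edgeR's quasi-likelihood test after TMM scaling, with Benjamini-Hochberg adjustment and a threshold of 0.05. A change of more than 2-fold was itself tested with glmTreat, and 5294 genes rose (25.9%) and 3515 fell (17.2%) past it. Among the 12634 genes that reached 10 fragments in all 8 fish, 2041 rose and 1583 fell past it.

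The ages were also separated fish by fish. In 6743 of the genes tested (33%) every yearling lay above every juvenile, and in 5631 (27.5%) every yearling lay below. Of the genes called, 84.8% of those that rose and 88.5% of those that fell did not overlap between the ages. By fitted values, 849 genes had risen over 16-fold and 122 had fallen over 16-fold, and among the genes that reached 10 fragments in all 8 fish these counts were 113 and 17. The 849 were mostly close to absent in the juveniles, with a median level of 0.172 CPM at 112 dpf and 4.84 CPM at 365 dpf, and 4.83% of them had no fragment in any juvenile, so that they passed the filter through the yearlings and their fitted fold changes are not exact sizes. The 122 genes that fell over 16-fold went from a median of 23.7 CPM to 0.941 CPM.

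The balance of rises and falls depended on how the libraries were scaled. TMM, which sets the scale by the bulk of the genes rather than by the total, gave the juveniles factors of 0.739 to 0.928 and the yearlings factors of 1.07 to 1.28. With TMM, 55.6% of the genes called rose and the median log2 fold change over all genes tested was 0.25. When only the totals were used, 9866 genes rose and 4196 fell, so that 70.2% of the calls were rises, and the median was 0.81. All 7725 rises were called under both scalings, as were 68.1% of the falls. With these factors, leaving out TMM moves the log2 fold changes of all genes upward. Rises could therefore hardly be lost, and their full overlap is no test of them. The other 1962 falls (31.9%) were not called without TMM, and 0 genes turned direction.

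The direction of change followed the level of the gene. Genes were placed in 10 equal level deciles by their mean level over the 8 fish. In the lowest decile, at a median of 0.17 log2 CPM, the median log2 fold change was 1.19, and in the next it was 1.34. In the third lowest decile, at a median of 1.25 log2 CPM, the median log2 fold change was 1.33, 55.1% of the genes rose and 11.4% fell. In the highest decile, at 7.09 log2 CPM, the median was -1.09, 16.2% rose and 59.9% fell. The medians of the deciles in between declined step by step with level and crossed 0 between the sixth (0.14) and the seventh (-0.32). The size of this gradient moved with the filter, and the reason was not tested. Among the 12634 genes that reached 10 fragments in all 8 fish, the median ran from 0.10 in the lowest decile and 0.47 in the next to -0.36 in the highest. The main filter keeps a scarce gene that is high at only 1 of the ages. The stricter one drops genes that are scarce in any fish, and the juveniles had fewer fragments. With no filter the median over all genes was 1.00, against 0.25 with the main filter. Without TMM, which moves all genes of a fish together, the third decile lay at 1.83, the seventh at 0.25 and the highest at -0.41, and only the 3 highest were below 0.

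**Figure D1:**
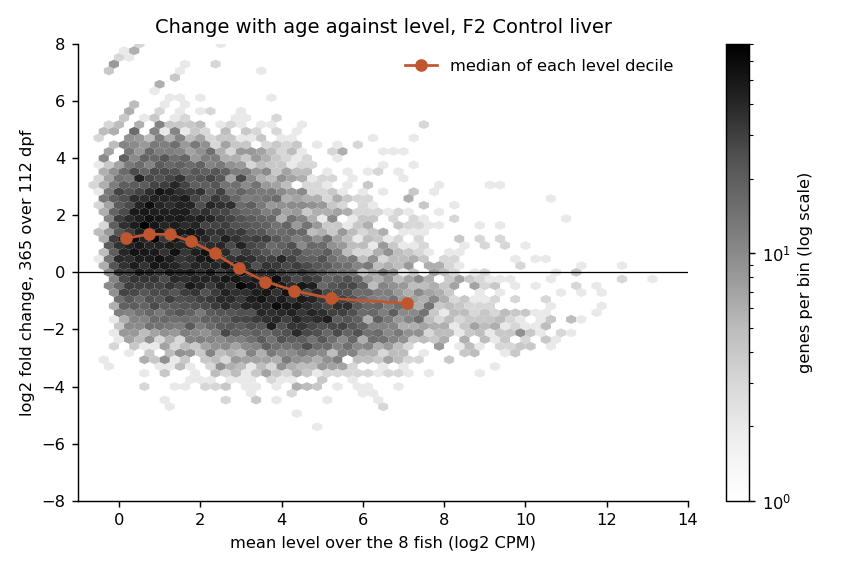
Log2 fold change of each of the 20445 genes tested (365 over 112 dpf, TMM scaling) against its mean level over the 8 F2 Control fish in log2 CPM, with shading for the number of genes and points for the median of each level decile; 28 genes lie outside the axes. The medians lie above 0 in the 6 lower deciles and below 0 in the 4 upper ones, while without TMM only the 3 highest deciles lie below 0.

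The fragments were also divided by rank, with the genes of each fish ranked by its own fragments, so that no scaling or list of calls was used. The 15 genes marked as too deep to process at either F2 age were left out first. Marked entries are listed at 0, so the share these genes held is not known. With their listed fragments included, the totals were 10446269 to 12475266 in the juveniles and 14265978 to 18006306 in the yearlings. All fish were then thinned to 9590448 fragments, the smallest total of the 8 without these genes. The genes after rank 100 and up to rank 1000 held 40.1% ± 0.727 (SD, n = 4) of the fragments in the juveniles and 33.3% ± 0.568 in the yearlings, and the 2 ages did not overlap (exact two-sided permutation test, p = 0.0286, the smallest that 4 against 4 fish can give). The genes beyond rank 10000 held 1.49% ± 0.326 in the juveniles and 4.17% ± 0.857 in the yearlings (exact permutation p = 0.0286). The genes after rank 10 and up to rank 100 also held more in the yearlings, 28.7% ± 1.02 against 26.2% ± 1.05 (exact permutation p = 0.0286), and so did those after rank 5000 and up to rank 10000, 6.04% ± 0.589 against 4.63% ± 0.449 (exact permutation p = 0.0286). The remaining bands overlapped between the ages: the 10 leading genes held 9.01% in the juveniles and 10.4% in the yearlings (exact permutation p = 0.257), and those after rank 1000 and up to rank 5000 held 18.5% and 17.4% (exact permutation p = 0.143). Over the 6 bands, which were chosen after seeing the data, the adjusted p was 0.0429 for the 4 bands that passed (exact permutation test, Benjamini-Hochberg).

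More genes were detected in the yearlings at equal depth. A gene was counted from 5 fragments after thinning. The juveniles had 18859, 19686, 17222 and 17549 such genes (replicates 0 to 3), and the yearlings had 22807, 25637, 25965 and 26478. Every yearling was above every juvenile, by 6893 genes on average (exact two-sided permutation test, p = 0.0286). Without thinning the difference was 8791 genes. The yearlings also had more fragments, 13934683 to 17778404 per fish without the marked genes, against 9590448 to 11315131. With all fish thinned to equal depth, 7138 of 19242 genes were still called as rising and 5880 as falling. Of the fragments left without the marked genes, 90% came from 3033 to 3718 genes in the juveniles and from 4028 to 5565 in the yearlings. RNA integrity of single fish was not at hand, so its part in these counts was not tested.

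**Figure D2:**
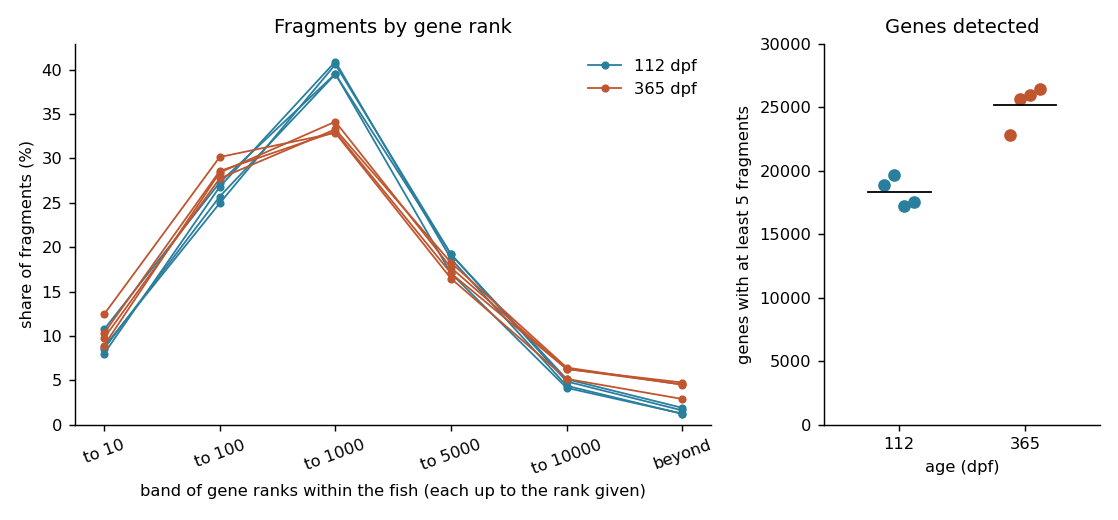
Left, share of fragments (%) held by bands of genes ranked within each of the 8 F2 Control fish, 1 line per fish. Marked genes were left out and the fish were thinned to equal depth. Right, number of genes with at least 5 fragments per fish, with the mean of each age as a line. The juveniles hold about 40.1% of fragments after rank 100 and up to rank 1000, against 33.3% in the yearlings, and 3 yearlings lie at 25637 genes or more while replicate 0 lies at 22807.

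After thinning, 12831 genes had at least 10 fragments in each juvenile, 17548 in each yearling and 12070 in each of the 8 fish. A strict pattern of presence at 1 age was rare: 29 genes had 0 fragments in all 4 juveniles and at least 10 in each yearling, and 4 genes had the reverse pattern.

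The most abundant genes changed their order. The marked genes are left out of these lists and shares too. The 100 genes with the highest mean CPM at each age had 55 genes in common. Of the leading 100 of the juveniles, 64 fell and 4 rose, with a median log2 fold change of -1.28, and of the leading 100 of the yearlings 34 rose and 20 fell, with a median of 0.11. Over all genes tested, 37.8% rose and 30.1% fell, and in the highest level decile 16.2% rose and 59.9% fell. The lists of 100 were picked by the levels at 1 of the ages being compared, so the counts describe the lists and are not a test. The share of fragments in a fish's own 100 leading genes was 33.7%, 34.3%, 34.8% and 38.0% in the juveniles and 42.6%, 37.5%, 37.3% and 38.9% in the yearlings. The ages overlapped and the difference of 3.87 percentage points did not pass the test (exact two-sided permutation p = 0.0857), while without juvenile replicate 3 it was 4.81 points (exact permutation p = 0.0286). Leaving out any other fish gave a difference that did not pass (exact permutation p from 0.0857 to 0.171). For the 1000 leading genes the difference was in the other direction, at -2.92 points (exact permutation p = 0.0857).

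The fragments held by the called genes show the weight of the change. The 7725 genes that rose held 5.12%, 8.71%, 4.89% and 5.68% of the fragments in the juveniles and 23.3%, 35.2%, 34.1% and 33.5% in the yearlings. The 6158 genes that fell held 59.9% to 68.7% in the juveniles and 27.4% to 33.6% in the yearlings. Both lists were chosen on these fish, the marked genes are left out, and the shares are given as a description.

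Among the rises, 6 genes shared the smallest adjusted p, and the smallest unadjusted p of these was that of GSONMT00079999001. Its level was 0.862, 1.24, 0.646 and 0.990 CPM in the juveniles and 29.0, 73.6, 49.3 and 62.7 CPM in the yearlings (replicates 0 to 3). The ages did not overlap, as the rule for naming genes required, and all juveniles were near the limit of detection, with 5 to 13 fragments each. The log2 fold change was 5.82 (SE 0.38, edgeR adjusted p = 1.0e-05). By FPKM, which is scaled within each table, it moved from rank 21429 to rank 3580 of the genes listed.

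Among genes that rose without overlap, GSONMT00069191001 was the most abundant in the yearlings. It stood at 303.6, 796.2, 692.5 and 700.6 CPM in the juveniles and at 4141, 7594, 3947 and 5050 CPM in the yearlings. The lowest juvenile was replicate 0, and every yearling exceeded the highest juvenile, as the same rule required. The log2 fold change was 3.06 (SE 0.37, edgeR adjusted p = 5.7e-05), and its FPKM rank went from 645 to 49.

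Among the falls, 17 genes shared the smallest adjusted p. The smallest unadjusted p of these was that of GSONMT00025774001, which went from 157.0, 154.3, 132.5 and 120.9 CPM in the juveniles to 7.78, 8.41, 6.47 and 9.16 CPM in the yearlings. Both ages were tight around their means. The log2 fold change was -4.15 (SE 0.23, edgeR adjusted p = 1.0e-05).

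The most abundant juvenile gene among those that fell without overlap was GSONMT00007231001. It had 11367, 6248, 11279 and 11856 CPM in the juveniles and 2363, 1147, 1494 and 1759 CPM in the yearlings. Juvenile replicate 1 was well below the other juveniles yet, as the rule required, above all yearlings. The log2 fold change was -2.59 (SE 0.33, edgeR adjusted p = 7.6e-05), and the gene went from FPKM rank 17 to rank 106. The function of these 4 genes is not given by the files.

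**Figure D3:**
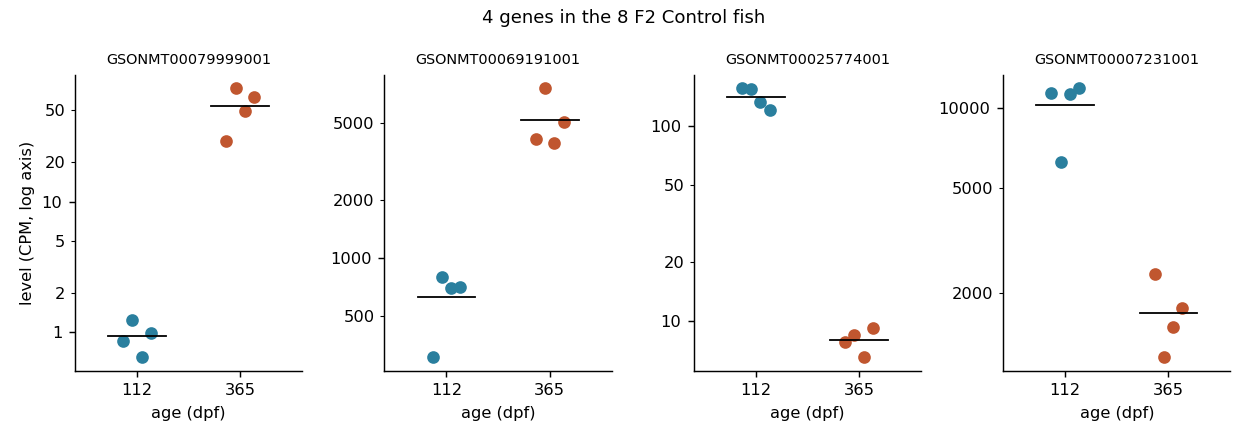
Level in CPM (log axis) of GSONMT00079999001, GSONMT00069191001, GSONMT00025774001 and GSONMT00007231001 in the 4 juvenile and 4 yearling F2 Control fish, 1 point per fish and a line at the mean of each age. Only genes whose ages do not overlap could be named, so the gap between the ages is set by that choice. Juvenile replicate 1 is the low juvenile point of the last gene at 6248 CPM.

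Within each age the fish were not equally alike. The correlation of log2 CPM across genes, given as a description, was 0.938 to 0.961 among the 6 pairs of juveniles and 0.889 to 0.964 among the 6 pairs of yearlings, against 0.651 to 0.846 between the ages. Yearling replicate 0 stood apart from the other yearlings, with which it correlated at 0.889 to 0.912, while the 3 pairs without it lay at 0.936 to 0.964. It was also the yearling nearest to the juveniles, at 0.773 to 0.846. Among the genes that rose it was the lowest of the 4 yearlings in 62.0%, and among those that fell it was the highest in 58.6%, where an equal share is 25%. Juvenile replicate 1 was its counterpart: it was the juvenile nearest to the yearlings in 55.6% of the rises and 58.5% of the falls. The biological coefficient of variation was 34.8% among juveniles and 37.8% among yearlings, and it was 29.6% and 29.8% without these fish. When yearling replicate 0 was left out, 9330 genes rose and 7048 fell.

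An axis of age was built to place every fish of the series between the 2 ages. It runs through log2 CPM of 20443 genes from the mean of the F2 Control juveniles (0) to that of the F2 Control yearlings (1), and each fish that defines it was left out when its own position was computed. The juveniles lay at 0.0303, 0.259, -0.144 and -0.0373 and the yearlings at 0.739, 1.06, 1.07 and 1.04. Replicate 0 was the single yearling below 1 and also had the fewest fragments of the yearlings, 13934683 without the marked genes. This total is not the number of reads sequenced, and its link to the position was not tested.

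The F1 Control fish, which share no animal with the F2 fish, changed in fewer genes. From 140 to 365 dpf, 5535 of 21817 genes rose (25.4%) and 4421 fell (20.3%). Of the genes tested in both generations, 3687 were called as rising in both, which is 49.1% of the F2 rises and 86.0% of the F1 rises, and 3055 fell in both, 51.7% of the F2 falls and 69.9% of the F1 falls. The genes that rose in F2 had a median log2 fold change of 0.81 in F1 against 2.23 in F2, and those that fell had -0.65 against -1.60, where the median of all these genes in F1 was -0.07. Genes picked by their call in F2 favour a large F2 value, so the converse was also taken, on genes tested in both generations. The 4288 of these called as rising in F1 had a median of 1.40 in F1 and 2.52 in F2. The 4372 called as falling had -0.94 and -1.30. Genes called in F1 that missed the F2 filter are not among them, so this choice still depends on the levels in F2. Across 19656 genes the log2 fold changes of the generations correlated with a Pearson r of 0.710, as a description over genes that share libraries within each generation.

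**Figure D4:**
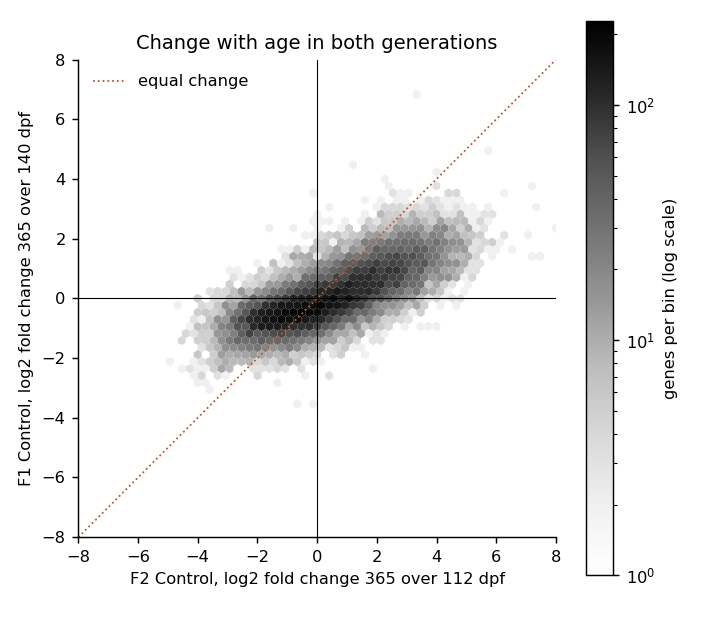
Log2 fold change of 19656 genes in F1 Control (365 over 140 dpf, vertical) against F2 Control (365 over 112 dpf, horizontal), with shading for the number of genes and a dotted line for equal change; 23 genes lie outside the axes. Of the genes drawn, those called as rising in F1 had a median of 1.40 in F1 and 2.52 in F2. The cloud thus also lies to the F2 side of the dotted line for genes picked in F1 among those tested in both.

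The difference between the generations was tested as an interaction of stage and generation in a fit of the 16 Control fish. It was called in 7381 of 24236 genes (30.5%). Among the genes that rose in F2, 3285 (42.5%) had a change that was higher in F2 than in F1 by this test and 19 had a lower one. Among those that fell, 3153 (51.2%) had a lower change in F2 and 2 a higher one. These shares use the same F2 fish that made the calls and are a description. The earlier sampling differed between the generations by its date, 112 against 140 dpf. F2 Control fish also shared a single tank, while the F1 experiment had replicate tanks. Generation, tank arrangement and age at the earlier sampling therefore cannot be told apart.

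On the age axis the generations lay apart at the earlier sampling. F1 Control fish at 140 dpf lay at 0.673, 0.597, 0.687 and 0.501, above all F2 Control juveniles and below all F2 Control yearlings. The difference from the F2 juveniles was 0.587 (exact two-sided permutation p = 0.0286, adjusted p = 0.10 over 7 comparisons on the axis). F1 fish were placed on the axis of all F2 Control fish, but each F2 Control fish on an axis without itself. The permutation p-values against F2 Control fish are therefore only a guide. F1 Control yearlings lay at 0.998 to 1.04, and their mean differed from that of the F2 yearlings by 0.0396 (exact permutation p = 0.971, adjusted p = 0.971). The F1 yearlings lay above the F1 fish of 140 dpf by 0.403 (exact permutation p = 0.0286, adjusted p = 0.10). On an axis of only the genes that rose in F2 the F1 Control fish of 140 dpf had a mean of 0.633 ± 0.0815 (SD, n = 4). On an axis of only those that fell their mean was 0.625 ± 0.00598. F2 Control juveniles and yearlings had means of 0.145 and 0.948 on the first and of 0.0706 and 0.910 on the second. Each of these axes was scaled within its own list, which takes out a change shared by the whole list. The positions therefore do not measure how far either list had risen or fallen.

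**Figure D5:**
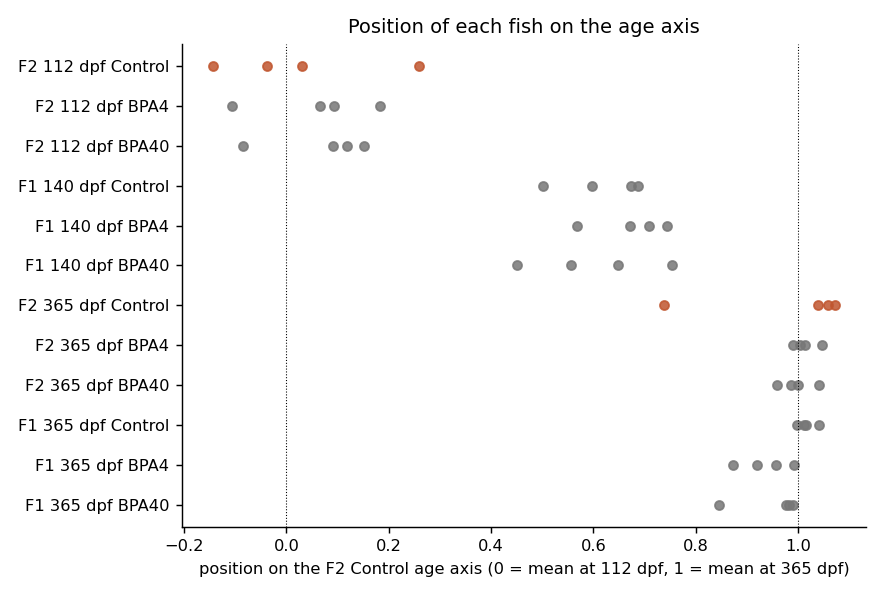
Position of all 48 fish on the F2 Control age axis (no unit; 0 is the mean of F2 Control at 112 dpf and 1 that at 365 dpf), 1 point per fish in rows by generation, age and treatment, with the F2 Control fish in orange. The F1 Control fish of 140 dpf lie in between, at 0.501 to 0.687. The F1 BPA4 and BPA40 fish of 140 dpf, from eggs loaded with bisphenol A, reach 0.744 and 0.753. F2 Control yearling replicate 0 lies apart from the other F2 Control yearlings, at 0.739.

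Each of the 4 named genes changed less in F1 by the interaction test (edgeR adjusted p from 2.9e-05 to 0.025). They had been picked for their change in the same F2 fish, which favours a larger F2 value, so this is a description. In BPA4 and BPA40, at the ages of F2 Control, GSONMT00079999001 had log2 fold changes of 4.33 and 3.85 and GSONMT00069191001 of 2.18 and 2.68. There GSONMT00025774001 had -3.08 and -2.29, and GSONMT00007231001 had -2.85 and -3.14. GSONMT00079999001 had a log2 fold change of 1.72 in F1 (edgeR adjusted p = 0.00086), and GSONMT00069191001 one of 1.27 (edgeR adjusted p = 0.018). GSONMT00025774001 fell by 2.44 on the log2 scale in F1 (edgeR adjusted p = 0.0012). For GSONMT00007231001 the change in F1 was -0.61 and did not pass the test (edgeR adjusted p = 0.056). At 140 dpf this gene stood at 2159 to 3458 CPM in the F1 Control fish, on a scale set over all 48 fish.

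In the F2 lineages with a history of bisphenol A, most genes called in F2 Control were called in the same direction. In BPA4, 8557 of 22003 genes rose (38.9%) and 6416 fell (29.2%), and in BPA40, 9684 of 23477 rose (41.2%) and 7013 fell (29.9%). The overlaps that follow use only genes tested in both groups. Among these, BPA4 had 6775 rises and 6369 falls, and BPA40 had 7298 and 6902. Of the genes that rose in F2 Control, 78.7% were also called as rising in BPA4 and 83.0% in BPA40. These are 87.1% and 86.8% of the rises of those lineages among genes tested in both. Of the genes that fell, 83.7% also fell in BPA4 and 88.0% in BPA40. These are 79.4% and 78.0% of the falls there, on the same genes. The median log2 fold change of the F2 Control rises was 2.08 in BPA4 and 1.99 in BPA40. In the highest level decile of the lineages the median log2 fold change was -1.21 in BPA4 and -1.24 in BPA40, and in the lowest decile it was 2.09 and 1.92, where F2 Control had -1.09 and 1.19. Deciles were set within each lineage, over differing numbers of genes tested, and these differences were not tested. On the age axis the juveniles of these lineages lay between -0.106 and 0.182 and the yearlings between 0.958 and 1.05.

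A difference in ageing from the controls was called for few genes. The interaction of age with BPA40 was called in 0 of 25979 genes (0%) by edgeR's quasi-likelihood test, with 2714 genes at an unadjusted p under 0.05, and DESeq2 called 177. The interaction with BPA4 was called in 4 genes (0.0154%), with 3617 at an unadjusted p under 0.05, and DESeq2 called 685. The number of calls moved with single control fish: 0 genes were called without juvenile replicate 0, juvenile replicate 1 or yearling replicate 2, 1 gene without yearling replicate 0, 17 genes without juvenile replicate 3 and 36 genes without yearling replicate 3. A gene that misses the threshold is not shown to age alike in the lineages.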

How the data were processed

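The authors sequenced liver mRNA libraries (stranded kit, paired-end reads) and, per their methods, mapped reads with Bowtie2 2.2.6 and TopHat2 2.1.0 and estimated abundance with Cufflinks. The deposited tables list, for each of 46585 genes and each fish, the raw number of fragments (counts) and FPKM, which Cuffdiff scaled over the fish of each table. Counts were whole in 100% of entries. The 8 columns of scaled fragments were not used. Genes that Cuffdiff had marked as too deep to process (HIDATA), listed at 0 in 100% of marked entries, were left out when marked in either F2 table (15 genes). Depth per fish is given above; fold changes carry the SE of the fit.

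Counts were tested in R 4.3.3 with edgeR 4.0.16 (TMM, filterByExpr, glmQLFit, glmQLFTest, glmTreat at 2-fold; two-sided, Benjamini-Hochberg, threshold 0.05), fitted to the 8 fish of a comparison, to 16 for the generations and to 24 for the F2 lineages. Alternatives were DESeq2 1.42.0, limma-voom (limma 3.58.1), other scalings and filters, thinning, a replicate block and leaving out each Control fish. The age axis (prior count 2) and its alternatives, the rank bands, the counts over 16-fold with 10 fragments in all fish, the genes called in F1 and the spread within an age were added after seeing the data. FPKM served for ranks only. Figures were drawn with Python 3.11.15 and matplotlib 3.10.9.

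The rule for genes named took, among genes called, not overlapping between ages and called without each fish in turn, the rise and the fall with the smallest adjusted p (ties taken by unadjusted p), the rise most abundant at 365 dpf and the fall most abundant at 112 dpf. Members and lists were chosen with earlier results of these data known. Lists of cell type markers and pathways were not run, because identifiers could not be paired with names. Chi-square per degree of freedom between fish of an age was at least 28.2, where sampling noise gives about 1, so no library was a duplicate.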

Additional observations from a re-analysis of the deposited data

Results flagged for a closer look

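Of 24 checks for a fish far from the other 3 of its age, 4 raised a flag, where chance raises about 1 in 20. Yearling replicate 0 raised 3 of them, on measures that are related to each other: its TMM factor was 1.07 against 1.26 to 1.28, the genes that rose held 23.3% of its fragments against 33.5% to 35.2%, and it lay at 0.739 on the age axis against 1.04 to 1.07. The other was the level of GSONMT00007231001 in juvenile replicate 1, at 6248 CPM against 11279 to 11856.

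The change with age differed between F2 and F1 controls in 7381 of 24236 genes (30.5%) by the interaction test. Between F2 Control and BPA4 it differed in 4 of 25979 genes (0.0154%). All 4 named genes were among the 7381. They had been picked for their change in the same F2 fish, so their values are a description. The log2 change was higher in F2 by 3.96 for GSONMT00079999001 (edgeR adjusted p = 2.9e-05) and by 1.66 for GSONMT00069191001 (edgeR adjusted p = 0.025). For GSONMT00025774001 the difference was -1.83 (edgeR adjusted p = 0.0041) and for GSONMT00007231001 -2.08 (edgeR adjusted p = 0.0014).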

How the results depend on the processing

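Of 242 recomputed values, 217 kept their direction and their side of the threshold, or stayed within 1.5 times for counts. This tally is a description, since part of it was fixed beforehand. The rule for naming genes required them to be called without each fish in turn. With only the genes marked in Control left out, the calls were those of the main fit (7725 rises, 6158 falls). The 4196 falls without TMM also counted as kept. Keeping only genes that reached 10 fragments in all fish tests fewer genes (12634), and gave 8025 genes called (4198 rises, 3827 falls), 3624 past a 2-fold change and 5985 in F1. Leaving out each control fish gave 12585 to 16378 genes called in F2 and 7808 to 11425 past a 2-fold change. It gave 8194 to 10001 in F1 and 6019 to 8939 for the generation interaction. The filter kept differing numbers of genes in these fits: the 12585 were of 20288 tested and the 16378 of 22424. The interaction with BPA40 had 2 calls with no filter, 16 with 10 fragments in all fish, 177 with DESeq2 and 0 to 1 without a control fish. That with BPA4 had 0 calls with DESeq2 size factors, 20 with no filter, 211 with 10 fragments in all fish, 685 with DESeq2 and 0 to 36 without a control fish; the cause was not tested. The share of the leading genes differed by 2.71 to 4.81 points without a fish, and by -2.92 for 1000 genes. Axis alternatives put F1 Control of 140 dpf at 0.572 to 0.671 and F1 yearlings at 0.951 to 1.02.

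Replicate numbers are shared by the ages but did not pair the fish: deviations of same-numbered fish correlated at -0.162 to 0.198, and 1 of 4 juveniles was most like the yearling of its own number. With the replicate block, 13242 genes were called (7340 rises, 5902 falls), 8483 past a 2-fold change, 8704 in F1, 6464 for the generation interaction, and 0 for BPA40 and BPA4.

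The limits are 4 fish per age, a single tank for the F2 Control fish, shallower juvenile libraries and no gene names. Juveniles had fewer fragments, so scarce genes are less certain there.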

Other observations

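The length of a gene moved little with its change. A relative length was taken from fragments per FPKM in 20331 of the genes tested, and genes were placed in 5 length quintiles. The median log2 fold change was 0.51 in the shortest quintile, 0.11, 0.11 and 0.15 in the next 3 and 0.42 in the longest. Falls were called in 24.3% of the longest quintile and in 29.7% to 33.7% of the others. Across genes, Spearman's rho between length and change was 0.014, as a description.

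A small number of genes changed in opposite directions in the generations. Of the F2 rises tested in both, 153 (2.04%) were called as falling in F1, and of the F2 falls 56 (0.947%) were called as rising. The BPA4 and BPA40 lineages had 27 and 17 such opposite calls among the F2 Control rises, and 6 each among the falls.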
